A study of Mus musculus with 4 samples.

Results

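The piRNA pathway core genes are 10 genes chosen by name: the PIWI proteins Piwil1, Piwil2 and Piwil4, and the processing partners Mael, Mov10l1, Ddx4, Asz1, Gtsf1, Henmt1 and Pld6. All 14 of their probes on a one-colour Agilent mouse array were taken, out of 56605 probes for 37074 gene names; 6 members had 1 probe and 4 had 2. RNA came from 2 mouse lines derived from male germ cells, 2 arrays each. GC-1 is an immortalised line with features of type B spermatogonia, and GC-2 comes from spermatocytes immortalised with the SV40 large T antigen together with p53 of a temperature-sensitive form. Both were grown untreated at the same temperature in serum-supplemented high-glucose DMEM and taken into Trizol when nearly confluent. Each line is a single established line. Nothing in the labels ties the replicates to separate cultures, so a p-value covers only how far these arrays vary, which may be technical.

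piRNAs are small RNAs of the germ line that guide PIWI proteins, the germline branch of the Argonaute family, to transposon transcripts. In the mouse testis, foetal piRNAs bind PIWIL2 (MILI) and PIWIL4 (MIWI2), which directs DNA methylation to transposons, and the piRNAs of meiosis bind PIWIL2 and PIWIL1 (MIWI). Precursors are handled by the helicase MOV10L1 and cut by PLD6 on the outer mitochondrial membrane, where ASZ1 also sits. HENMT1 methylates the ends of piRNAs, and DDX4, MAEL and GTSF1 act in germ granules or with PIWI complexes. Loss of any of several of these genes arrests spermatogenesis in male mice.

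The array reads each gene through probes of 60 bases, and what it can say about a member rests on them. The first 30 bases are shown for the 5 probes with a signal well above background and for the dim probe of Pld6, whose pair stands on the same gene. Their mm9 positions come from the scanner files, all on the minus strand; whether a position is coding or untranslated was not analysed here.
Piwil2 A_51_P242967 at chr14:70772497-70772556: gctgagacctgaaatgtaaaagccatagaa
Piwil4 A_55_P2046753 at chr9:14506802-14506861: gcacaaagtgtccacaaggaaccaagtctg
Ddx4 A_55_P2908180 at chr13:113388588-113388647: ggttctgtttccaatgtgagctttgtactt
Gtsf1 A_66_P136094 at chr15:103250420-103250930: ctccttgtgatgaagactgggataaagatt
Pld6 A_51_P155755 at chr11:59597553-59597612: gggggagcatgttggagtaacaagtcctga
Pld6 A_55_P2744092 at chr11:59598561-59598620: atccagaacaaccgggagaacgtcctgatt
The 2 Pld6 probes lie 1008 bases apart in the genome, and those of Piwil4, Asz1 and Henmt1 lie 5981, 57126 and 2069 bases apart. The Gtsf1 probe spans 511 bases of the genome, more than its own length of 60. No further probe carried the accession of a member, and 9 of the 10 members had theirs in the reference table.

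Signals below are processed Cy3 intensities, the spot brightness after background subtraction, on a linear scale. A spot is well above background where the scanner software flags it so, and a gene counts as measured in a line if 1 of its probes has the flag on both arrays. GC-1 was the brighter line, with a 75th percentile of 666 and 693 against 416 and 199.9 in GC-2, and 57.5% to 64.9% of probes were flagged. The lowest flagged signal was 9.11 and 11.5 in GC-1 and 8.67 and 7.72 in GC-2. On the log2 scale relative to the 75th percentile, on which lines are compared, this limit was -6.19 and -5.92 in GC-1 but -5.58 and -4.69 in GC-2, so a dim gene of equal level could be missed in GC-2 alone. Of 96 probes for ERCC control RNAs, which have no mouse sequence, 9, 9, 7 and 3 were flagged, the brightest at 74.2, 65.5, 38.3 and 31.0. No label says whether ERCC RNA was added. All 4 arrays lay on 1 slide with each line in its own row, so row and line cannot be told apart. GC-1 carried 6 of 12 germ cell markers and GC-2 carried 5, while Dazl, Kit and Acrv1 were above background on no array.

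In GC-1, 5 of the 10 members were measured (Piwil2, Piwil4, Ddx4, Gtsf1 and Pld6), and in GC-2 only 2 (Piwil4 and Pld6). The other 5, Piwil1, Mael, Mov10l1, Asz1 and Henmt1, were well above background on no array. The share of all gene names measured was 63.0% for GC-1 and 56.6% for GC-2. Of all 37074 gene names, 11044 were well above background on no array. No member exceeded the brightest ERCC probe on both arrays of a line, so the members' signals were low. In bulk RNA, fewer cells with a transcript and less transcript per cell cannot be told apart.

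**Figure D1:**
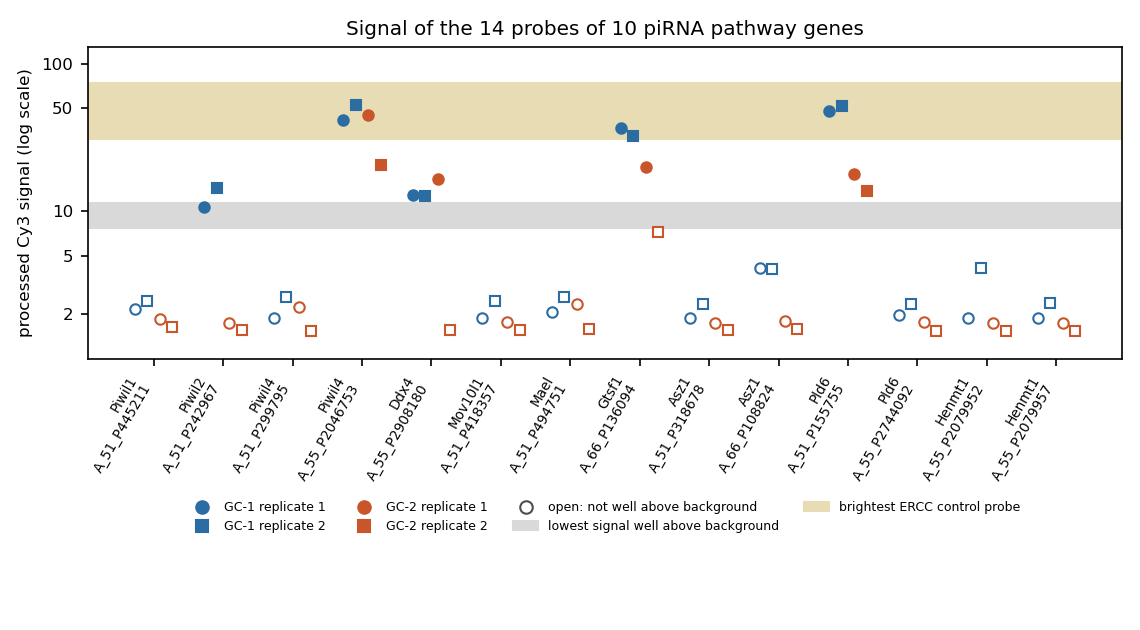
Processed Cy3 signal (log axis) of the 14 probes on each of the 4 arrays, with filled symbols for spots well above background and open symbols for the rest. The grey band spans the lowest flagged signals (7.72 to 11.5) and the tan band the brightest ERCC probes (31.0 to 74.2); 9 probes have open symbols on all arrays, at 1.55 to 4.14.

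Line differences are GC-2 minus GC-1 in log2, from limma over 36692 probes, with Benjamini-Hochberg adjustment and a threshold of 0.05. Of all probes tested, 45.7% passed the threshold, and 21.6% passed it as lower in GC-2. Of the 5 member probes tested, 1 passed, that of Piwil2, and it was lower in GC-2, which is close to the share of all probes that passed as lower. The median difference of the 5 was -0.29, against 0.07 over all probes tested. These 5 had passed a filter for flags on both arrays of a line and do not stand for the 10. Piwil2, Ddx4 and Gtsf1 passed it through GC-1 alone, which favours lower values in GC-2, so neither the count nor the median is evidence of a direction; Piwil4 and Pld6 passed in both lines.

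Among the PIWI genes, Piwil2, the partner of foetal and meiotic piRNAs, gave signals of 10.6 and 14.4 in GC-1 and of 1.75 and 1.57 in GC-2. Both GC-1 arrays were above both GC-2 arrays, and neither GC-2 spot was above background. The raw spot means showed how narrow the margin was. They were 36.0 and 40.1 over local backgrounds of 27 and 28 in GC-1, and 23.5 and 22.0 under local backgrounds of 25.5 and 26 in GC-2. The fitted difference was -1.66 ± 0.37 log2 (SE, n = 2 arrays per line; 95% interval -2.59 to -0.74; limma adjusted p = 0.0161). The GC-2 values behind it are surrogates for spots not above background. The limit of detection in GC-2 averaged -5.14, above the GC-1 level of -5.78 ± 0.27 (SD, n = 2), so no fold is given and the GC-2 side of the fitted difference lies below what those arrays could measure. Of 12 alternatives run, 11 kept the difference negative, each resting on GC-2 spots not above background. The call was lost without GC-1 replicate 1 (-1.85, adjusted p = 0.0678) or without GC-1 replicate 2 (-1.47, adjusted p = 0.101), and normexp background correction turned the difference to 0.80 (adjusted p = 0.0694).

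Piwil4, the nuclear PIWI protein of foetal germ cells, was seen by 1 of its 2 probes. A_55_P2046753 gave 41.5 and 52.5 in GC-1 and 44.8 and 20.5 in GC-2, well above background on all 4 arrays, with overlapping signals before scaling. Relative to the 75th percentile the levels were -4.00 and -3.72 in GC-1 and -3.21 and -3.29 in GC-2, and the lines no longer overlapped. The difference was 0.61 ± 0.24 log2 (95% interval 0.01 to 1.21), which missed the threshold (limma adjusted p = 0.0890). It was 0.88 and passed with normexp correction (adjusted p = 0.0412), and turned to -1.46 with scaling to spike-in RNA (adjusted p = 0.00244). The second probe, designed on a cDNA clone, gave 1.90, 2.60, 2.25 and 1.55 and was above background on no array. Piwil1, the PIWI protein of meiotic and haploid cells, gave 2.19 and 2.47 in GC-1 and 1.87 and 1.65 in GC-2, all below the limit.

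Ddx4, the germ cell helicase also called VASA, gave 12.9 and 12.7 in GC-1 and 16.4 and 1.56 in GC-2. The GC-1 arrays were alike, while the GC-2 arrays lay on either side of them: GC-2 replicate 1 held the highest of the 4 signals and GC-2 replicate 2 was below background. Raw spot means were 37.5 and 38.0 over backgrounds of 27 and 27 in GC-1, and 38.9 over 26 and 22.6 under 25 in GC-2. The levels were -5.73 ± 0.06 in GC-1 and -5.83 ± 1.66 in GC-2 (SD, n = 2), and the difference was -0.10 ± 0.74 (95% interval -1.96 to 1.76; limma adjusted p = 0.923). Without GC-2 replicate 2 it was 1.07 (adjusted p = 0.0587), and without GC-2 replicate 1 it was -1.27 (adjusted p = 0.0327), so 1 array decided its direction. It was 0.98 with normexp correction (adjusted p = 0.0265) and -2.17 with spike-in scaling (adjusted p = 0.00727).

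Gtsf1, a small zinc finger protein that works with PIWI complexes, gave 36.9 and 32.6 in GC-1 and 19.9 and 7.25 in GC-2. Both GC-1 signals were higher before scaling, and GC-2 replicate 2 was positive but not well above background. After scaling the levels were -4.17 and -4.41 against -4.39 and -4.78, which overlap, and the difference was -0.29 ± 0.26 (95% interval -0.95 to 0.37; limma adjusted p = 0.405). Pld6, also called zucchini, was read by A_51_P155755 at 48.0 and 51.8 in GC-1 and 17.9 and 13.7 in GC-2, flagged on all 4 arrays. The unscaled signals did not overlap, but GC-2 has the lower overall signal, and the scaled levels came closer, at -3.79 and -3.74 against -4.54 and -3.86. The difference of -0.44 ± 0.30 (95% interval -1.20 to 0.33) did not pass (limma adjusted p = 0.288). The other Pld6 probe gave 1.97, 2.37, 1.77 and 1.55, at the floor of each array, although both name the same transcript. Normexp correction turned Gtsf1 to 0.67 and Pld6 to 0.47, neither past the threshold. Spike-in scaling brought them to -2.36 (adjusted p = 0.000106) and -2.50 (adjusted p = 2.88e-05).

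**Figure D2:**
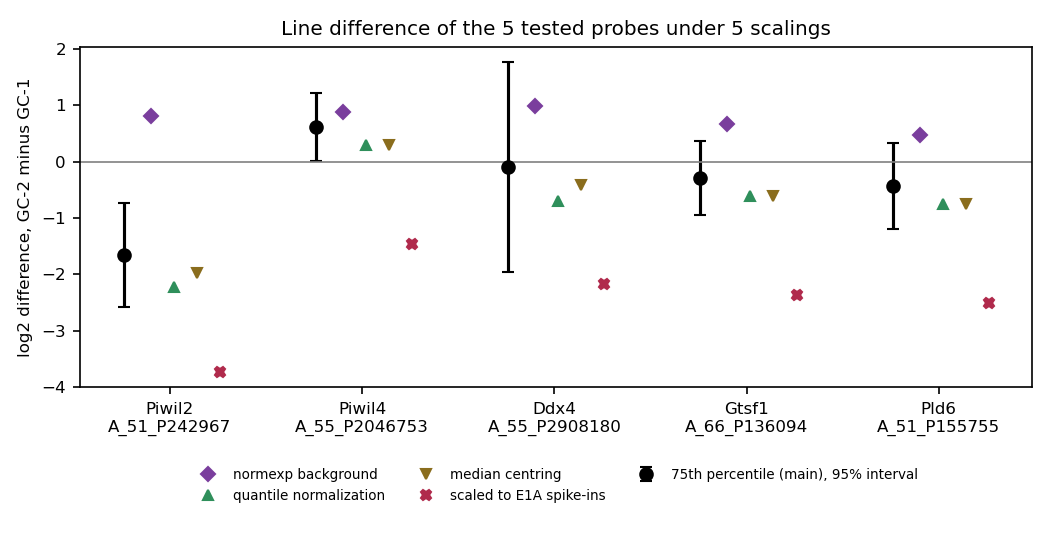
log2 difference, GC-2 minus GC-1, of the 5 tested member probes: black points with 95% intervals are scaled to the 75th percentile, and coloured symbols show 4 other scalings or background corrections. Piwil2 lies at -1.66, the interval of Piwil4 starts at 0.01 and the other 3 include 0; normexp points lie above 0 for all 5 and spike-in points lie below 0 for all 5.

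Median centring and spike-in scaling differ from the main scaling by a shift common to all probes of an array. Normexp correction and quantile normalization do not move all probes alike. The median difference of all probes was 0.07 with the 75th percentile, 0.49 with normexp correction, -0.25 with median centring and -2.00 with the E1A spike-ins, 8 probes whose signal was 2.07 log2 higher in GC-2 after 75th percentile scaling. Relative to the median of all probes, Piwil4 stood at 0.54, Piwil2 at -1.73, Pld6 at -0.50, Gtsf1 at -0.36 and Ddx4 at -0.17 with the 75th percentile. Median centring and spike-in scaling give these same values by construction, since they shift all probes of an array alike. With normexp the same quantity was 0.39 for Piwil4, 0.32 for Piwil2, -0.01 for Pld6, 0.18 for Gtsf1 and 0.49 for Ddx4. The signs thus differed between background corrections for Piwil2, Gtsf1 and Ddx4, and Piwil4 stayed above the median in both. Normexp values carry an offset of 50, added to each signal before log2, while no processed member signal exceeded 52.5. With such an offset, dim probes tend by construction to come out higher on arrays with a lower 75th percentile, as in GC-2. A sign or a pass under normexp is therefore no separate reading of a member's direction.

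The members on no array lay at or near the floor. Mov10l1, the helicase of primary piRNA processing, gave 1.88 and 2.47 in GC-1 and 1.78 and 1.57 in GC-2. Mael, which acts in transposon silencing and piRNA precursor handling, gave 2.09 and 2.64 in GC-1 and 2.37 and 1.59 in GC-2. These signals are several times below the lowest flagged spot of their arrays. Asz1, a mitochondrial protein of germ cells, gave 4.12 and 4.05 in GC-1 and 1.81 and 1.58 in GC-2 with 1 probe, and 1.90, 2.35, 1.74 and 1.57 with the other. Henmt1, the methyltransferase of piRNA ends, gave 1.90 and 4.14 in GC-1 and 1.74 and 1.55 in GC-2 with 1 probe, and 1.90, 2.37, 1.75 and 1.55 with the other. By the weaker flag of the software, positive and significant, Asz1 passed on each GC-1 array and Henmt1 on GC-1 replicate 2. Mael had that flag on replicate 1 of both lines, Mov10l1 on GC-1 replicate 2 and GC-2 replicate 1, Piwil1 on GC-1 replicate 1, and the dim Piwil4 probe on GC-2 replicate 1. Of the 36 spots of the 9 probes without a flag, 27 held a surrogate value and 9 were positive and significant. Under that weaker flag, 6 members counted as measured in GC-1, with Asz1 added, and 3 in GC-2, with Gtsf1 added.

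A floor set on the signal scale becomes uneven once arrays are scaled. The 9 probes without a flag had median levels of -8.45 and -8.13 in GC-1 and -7.87 and -7.00 in GC-2, the highest on GC-2 replicate 2, the array with the lowest 75th percentile. Tested without a filter, 8 of the 9 were higher in GC-2, and the differences ran from -0.03 to 0.98 log2 with a median of 0.87. limma called 0 of them in either direction, and 2, of Mael and Piwil4, had an unadjusted p under 0.05. The authors' deposited table lists a log2 value for all 10 members, the 5 without a flag included. In the authors' deposited table those 5 are 0.38 (Asz1) to 0.92 (Mael) higher in GC-2. For the 6 members with 1 probe, the authors' deposited table minus the scaled scanner values was nearly constant on each array, 0.26 to 0.27 on both GC-1 arrays, 0.30 to 0.31 on GC-2 replicate 1 and 0.14 on GC-2 replicate 2. Piwil2 in the authors' deposited table stands at -5.71 and -5.32 in GC-1 and -7.59 and -6.85 in GC-2.

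The split of calls into higher and lower among the other genes of the pathway depended on the scaling. Of 31 further genes of piRNA biogenesis, Tudor scaffolds, regulators and effectors, 30 had a probe, Gtsf2 by accession; Dnmt3c was not analysed here. GC-1 measured 15 of the 30, GC-2 measured 14, and 12 were above background on no array, among them Tdrd1, Tdrd6, Tdrd12, Stk31, Fkbp6 and Tcfl5. Of all 37074 gene names, GC-1 measured 63.0%, GC-2 measured 56.6% and 11044 were on no array. With the brightest tested probe per gene, 6 of 16 tested genes rose and 6 fell, where 20.0% of all 24129 genes tested rose and 23.3% fell. With median centring 4 rose and 7 fell, and with spike-in scaling 2 rose and 12 fell. The median difference was 0.09, against -0.04 over all genes tested. Whether the listed genes are also expressed outside germ cells was not tested. Neither their detection nor these counts are therefore shown to be specific to the piRNA pathway.

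Of the genes tied to transposon methylation, Tex15, a PIWIL4 cofactor, gave 2.07 and 2.43 in GC-1, below background, and 61.6 and 23.9 in GC-2, both flagged. With the main scaling it rose by at least 8.85-fold, the GC-1 side being a detection limit. This bound was not computed with other scalings, and spike-in scaling moves every GC-2 minus GC-1 difference down by 2.07 log2. The call itself rests on a fitted difference of 5.33 log2 (limma adjusted p = 0.000188), which used the GC-1 spots below background. Spocd1, another PIWIL4 partner, gave 381 and 307 in GC-1 and 16.7 and 5.94 in GC-2, the last not well above background. It fell by 3.87 ± 0.28 log2 (SE; limma adjusted p = 0.000539). Dnmt3l, the methyltransferase cofactor, differed by 0.16 ± 0.27 and did not pass (limma adjusted p = 0.652).

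Among Tudor scaffold genes and the enzymes that methylate their ligands, Rnf17 (Tdrd4) gave 15.3 and 22.6 in GC-1 and 149.9 and 121 in GC-2. It rose by 4.09 ± 0.35 log2 (limma adjusted p = 0.000863), with 1 of its 2 probes tested. Tdrd3 rose by 1.74 ± 0.24, and Prmt5 and Wdr77, the arginine methyltransferase that marks PIWI proteins and its partner, rose by 1.59 ± 0.25 and 1.09 ± 0.29, though all 3 turned under spike-in scaling. Tdrkh, the mitochondrial Tudor protein that brings PIWI proteins to trimming, fell by 1.51 ± 0.37 with all 3 probes lower, and Tdrd7 fell by 0.90 ± 0.24. Their limma adjusted p lay between 0.00364 and 0.0306.

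Pnldc1, the trimming nuclease, rose by 1.20 ± 0.27, which turned under spike-in scaling, and its other tested probe, at 0.45, did not pass. Exd1, a partner of Tdrd12, fell by 1.94 ± 0.28 with both probes lower. Gpat2, a mitochondrial partner of PIWIL2, gave 104 and 61.5 in GC-1 and 13.0 and 5.57 in GC-2, the last not well above background, and fell by 2.00 ± 0.34, which turned with normexp correction. Ddx25, a germ cell helicase, gave 7211 and 7704 in GC-1 and 354 and 249 in GC-2 and fell by 3.41 ± 0.28. Only 1 of the 2 Ddx25 probes was tested. The limma adjusted p of these 4 lay between 0.000749 and 0.0170. Hsp90aa1 (-0.81, limma adjusted p = 0.0504), Nanos3 (0.55) and Mybl1 (0.02) did not pass by their brightest probe. The other tested probe of Hsp90aa1, at -1.07, passed as lower in GC-2. Mybl1, the MYB factor of meiotic piRNA genes, was well above background on all 4 arrays at 2197 and 617 in GC-1 and 821 and 305 in GC-2. Its GC-1 arrays lay on either side of GC-2 replicate 1.

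**Figure D3:**
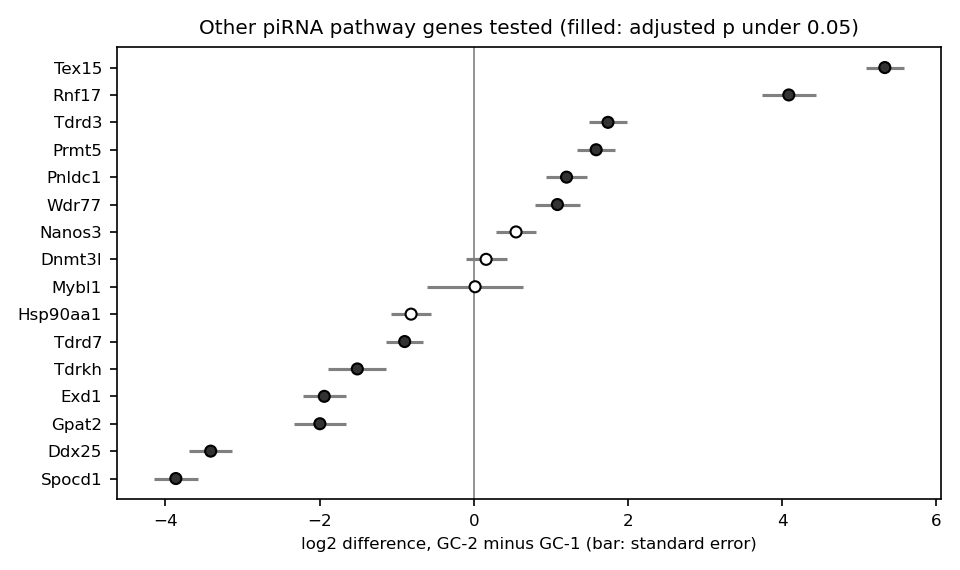
log2 difference, GC-2 minus GC-1, of the 16 other piRNA pathway genes tested, with standard errors; filled points passed limma's threshold (6 rose, 6 fell). Values run from -3.87 for Spocd1 to 5.33 for Tex15, the latter fitted against spots below background in GC-1; under spike-in scaling Tdrd3, Pnldc1, Prmt5 and Wdr77 turn negative, and under normexp Gpat2 turns positive.

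Of these 12 calls, 11 kept their direction with normexp correction, Gpat2 being the exception, and 12 with quantile normalization and with median centring. With spike-in scaling 8 kept it, and Tdrd3, Pnldc1, Prmt5 and Wdr77 turned. Relative to the median of all probes, all 12 kept it with normexp correction and with quantile normalization; median centring and spike-in scaling shift all probes of an array alike and cannot change that quantity.

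The relatives were chosen for wide expression, so their detection was set by that choice and is not a result about the members. All 11, the Argonautes Ago1 to Ago4, Mov10, Ddx3x, Ddx5, Ddx6, Pld3, Dicer1 and Drosha, were measured in both lines. They had 2 to 5 probes each, against 1 or 2 for a member. By their brightest probe Ago1 (2.62 ± 0.29), Ddx3x (1.30 ± 0.23), Ddx6 (1.29 ± 0.25) and Ago4 (1.22 ± 0.23) rose past limma's threshold, though under spike-in scaling Ago4, Ddx3x and Ddx6 turned and no relative was called higher. Ddx5 (-1.24 ± 0.26), Drosha (-1.15 ± 0.23), Ago3 (-1.05 ± 0.23) and Ago2 (-0.92 ± 0.24) fell, and each of these 4 had another probe that rose. With the mean over probes 5 of the 11 passed, each as a rise, and with 1 array left out 3 to 5 passed by the brightest probe. The median of the 11 was 0.24. Over all 24129 genes tested by their brightest probe, 20.0% rose and 23.3% fell, and no such share is given for the mean over probes. Mov10, Dicer1 and Pld3 did not pass by their brightest probe, but each had another probe that rose.

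Summed levels of markers of other cell types differed between the lines, and their part in the members' values was not tested. The sums are given in multiples of each array's 75th percentile. A sum on this linear scale is weighted to its brightest markers, so it does not show that a list moved as a whole. Of all genes tested by their brightest probe, 20.0% rose and 23.3% fell. Epithelial and mesothelial markers summed to 645 and 731 in GC-1 and 2.47 and 2.45 in GC-2, with 5 and 3 of 7 measured, and all 5 tested fell. Sertoli cell markers summed to 156 and 126 against 6.93 and 6.89, with 6 and 5 of 8 measured and Amh and Cldn11 on no array; 1 rose and 4 fell of 6 tested. Macrophage markers gave 26.5 and 15.9 against 4.68 and 5.24, with 3 of 4 measured in both lines and Adgre1 on no array; of the 3 tested, 1 rose and 1 fell. Leydig cell markers gave 0.389 and 0.425 against 12.6 and 14.7, with 4 and 3 of 5 measured and Hsd3b1 on no array; 3 rose and 1 fell of 4 tested. Peritubular myoid markers gave 11.3 and 10.9 against 32.7 and 42.2, with 5 and 4 of 5 measured; 2 rose of 5 tested. The 12 germ cell markers summed to 0.45 and 0.47 in GC-1 and 1.12 and 1.47 in GC-2; of 6 tested, 1 rose.

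The promoters of the members were also read for short motifs. Whether a motif bears on the level of a member was not tested. RefSeq's promoter table on GRCm38.p6 held 11 entries for 9 members, with pairs for Piwil4 and Pld6, each running from 250 bases before the start site to 50 after it. Piwil2 has no entry. Motifs searched on both strands were the E-box CACGTG, which MYC, MAX and MGA proteins bind, the E2F core TCCCGC, and the MYB core CAGTTG. As background, complexes of MGA, MAX and E2F proteins silence germ cell genes in other cells, and A-MYB and TCFL5 act on piRNA genes in meiosis. The 4 promoters shown run from 250 bases before to 30 after the start site, and capitals mark motif matches. They are those of Piwil1 and Mael, on no array and with motifs, of Ddx4, and of Gtsf1, which was measured and has no match.
Piwil1 at chr5:128735996-128736275, plus strand: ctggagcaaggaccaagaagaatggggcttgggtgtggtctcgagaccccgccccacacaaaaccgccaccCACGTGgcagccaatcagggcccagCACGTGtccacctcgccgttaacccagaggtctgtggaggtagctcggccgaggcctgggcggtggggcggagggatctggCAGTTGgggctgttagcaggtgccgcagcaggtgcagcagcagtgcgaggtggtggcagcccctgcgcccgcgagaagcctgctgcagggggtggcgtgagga
Mael at chr1:166238715-166238994, minus strand: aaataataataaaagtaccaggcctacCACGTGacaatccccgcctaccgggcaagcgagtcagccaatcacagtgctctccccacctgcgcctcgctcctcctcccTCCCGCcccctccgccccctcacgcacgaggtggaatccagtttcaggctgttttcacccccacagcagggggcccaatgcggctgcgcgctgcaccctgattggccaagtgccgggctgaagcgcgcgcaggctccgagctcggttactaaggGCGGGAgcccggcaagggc
Ddx4 at chr13:112652281-112652560, minus strand: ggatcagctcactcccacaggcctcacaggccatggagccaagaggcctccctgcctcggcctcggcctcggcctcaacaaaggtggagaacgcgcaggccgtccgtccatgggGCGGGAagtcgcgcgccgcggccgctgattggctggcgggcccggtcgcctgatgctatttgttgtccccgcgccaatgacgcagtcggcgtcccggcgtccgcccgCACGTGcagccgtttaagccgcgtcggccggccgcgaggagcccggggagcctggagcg
Gtsf1 at chr15:103430398-103430677, minus strand: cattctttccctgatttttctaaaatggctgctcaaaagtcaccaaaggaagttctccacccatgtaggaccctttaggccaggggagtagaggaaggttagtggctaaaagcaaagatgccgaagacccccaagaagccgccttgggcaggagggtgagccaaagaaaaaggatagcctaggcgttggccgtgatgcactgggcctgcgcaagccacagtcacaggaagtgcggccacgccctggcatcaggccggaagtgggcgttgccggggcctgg
The E-box occurred in 5 of the 11 entries, 1 each of Ddx4, Mael, Mov10l1, Piwil1 and Pld6, and in 7.15% of all 32851 promoters of the same length. Piwil1 held it at -179 and -154, Mael at -223, Mov10l1 at -246, Ddx4 at -29 and Pld6 at -33 bases from the start site. The E2F core was found in Ddx4 at -136 and in Mael at -143 and 12, against 20.0% of all promoters, and the MYB core in Piwil1 alone of the 11, at -73, against 13.7%. The E-box and the E2F core each contain a CpG, and the entries had a median of 18 CpG against 7 over all promoters. The shares over all promoters were not matched for CpG, so they are no test of enrichment. No match says only that these letters are not in the window. Of the 5 members with the E-box, Piwil1, Mael and Mov10l1 were on no array, while Ddx4 was measured in GC-1 and Pld6 in both lines. Asz1 and Henmt1, also on no array, had no match.

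The CpG counts of the entries ran from 0 to 38 with a median of 18, where the quartiles over all promoters were 3, 7 and 20. Ddx4, a gene long known for its methylated promoter outside the germ line, had 38, more than 95% of promoters, and Henmt1 had 31. Piwil4 had 0 in 1 entry and 11 in the other. DNA methylation was not measured here, and counts of CpG say nothing of it.

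**Figure D4:**
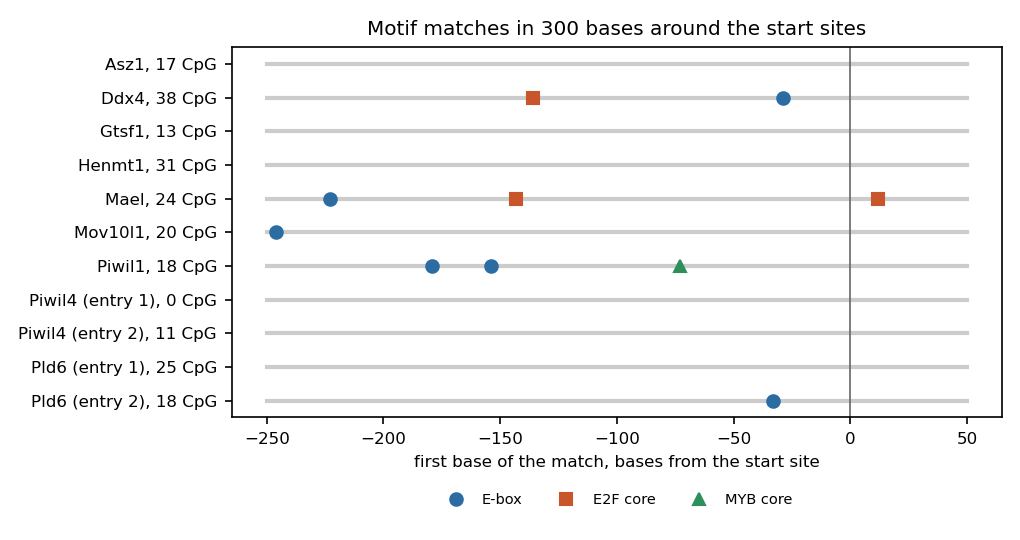
Matches of the E-box, E2F core and MYB core (symbols) in the 11 promoter entries of 9 members, by distance of the first base from the start site; the CpG count stands beside each name. Matches lie in Ddx4, Mael, Mov10l1, Piwil1 and 1 Pld6 entry, and CpG counts run from 0 (Piwil4) to 38 (Ddx4).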

How the data were processed

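RNA of the GC-1 and GC-2 lines was hybridised to 4 one-colour Agilent arrays, 2 per line; lines and replicate numbers come from the sample titles. Per the file headers, Agilent Feature Extraction 11.5.1.1 made the deposited intensity values: a background-subtracted, detrended processed signal with a surrogate for spots not above background, its error, the raw spot mean and the local background, and flags of 0 or 1 per spot. The authors' deposited table holds log2 values per gene name; no source used here says how several probes were merged. Irregular spots (92 to 224 per array) and control spots were left out, spots of a probe were averaged, and each array's 75th percentile of log2 signal was subtracted. Probes well above background on both arrays of a line, with a value on all 4 arrays, entered the limma fit (version 3.58.1, R 4.3.3, lmFit, eBayes, two-sided, Benjamini-Hochberg over 36692 probes). The step was also run on simulated data, which gives no evidence on the dim member probes. With 2 arrays per line, precision is limited.

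Where neither array of a line was above background, a bound is given: the brighter line's mean over the dimmer line's mean of the lowest flagged signal, or the probe's own if higher. All member probes are accounted for; of the other pathway genes and relatives every gene past the threshold is named, and up to 6 of those not measured. The members and lists were chosen with earlier results of these data known. Alternatives covered normexp correction (offset 50), quantile, median and E1A spike-in scaling, the filter, the flag, each array left out, a replicate block, the probe rule and the authors' deposited log2 values. Promoters and names come from RefSeq, GRCm38.p6, matched by symbol.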

Additional observations from a re-analysis of the deposited data

How the results depend on the processing

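Over all probes, 16780 differed, 31595 with spike-in scaling and 10185 (without GC-1 replicate 1) to 13682 with an array left out; the authors' table, with 1 row per gene, gave no such count. The share of these calls that was higher in GC-2 was 52.7%, and it was 66.4% with normexp correction, 39.0% with median centring and 5.31% with spike-in scaling. Of the member probes 1 was called, against 2 with normexp, 5 with spike-in scaling, 0 among probes flagged on all 4 arrays, where Piwil2 was not tested and Piwil4 had an unadjusted p under 0.05. With an array left out the count was 0 to 2: 0 without either GC-1 array, where Piwil2 kept an unadjusted p under 0.05, and 2 without GC-2 replicate 1. Normexp, whose offset of 50 is close to or above every member signal, turned Piwil2 to 0.80, Ddx4 to 0.98, Gtsf1 to 0.67 and Pld6 to 0.47. Spike-in scaling turned Piwil4 to -1.46. The causes of these turns were not tested. Ddx4 ran from -1.27 to 1.07 with an array left out. Of the relatives 8 were called, 5 in the authors' table, 5 with the mean over probes and 3 (without GC-1 replicate 1) to 5 with an array left out, each of the 4 arrays lowering it by over 1.5 times. Members measured became 0 in GC-1 and 0 in GC-2 above the brightest ERCC probe, and 4 in GC-2 with 1 array enough. Pathway calls stayed within 1.5 times of 12 under every alternative run, but their split of 6 higher and 6 lower became 4 and 7 with median centring and 2 and 12 with spike-in scaling. With the replicate number as a replicate block, 17332 probes and 13 pathway genes were called and no member call changed; same-numbered arrays deviated together with r = 0.12 over probes, and with 2 pairs the numbers were not taken to pair the samples. With an array left out its line has 1, assumed to vary like the other line. Signal over background limits every member's value.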
